A study of Dunaliella salina with 18 samples.

Results

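Cultures of Dunaliella salina were compared where their salinity should be the same but their history was not. The 3 L2H libraries taken 24h after a salinity shift were set against the 3 H2L libraries taken at 0h, which make 6 of the 18 libraries of the series. All cells belong to strain CCAP 19/3, and the labels distinguish the libraries by arm, time and a tag in the title. In each arm the sample titles give a salinity change opposite to that in the condition field. Under either reading an L2H culture ends at the salinity from which the H2L arm starts, provided that 0h precedes the shift, so the question of how far shifted cells resemble cultures already living there can be asked without knowing which salinity that is. The salinities themselves, the length of prior culture at each of them and the way the cultures were divided are not given in the sources used here.

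Dunaliella salina is a unicellular green alga without a rigid cell wall that tolerates a very wide range of salinity. Its cells swell or shrink within minutes of a change in salinity and then restore their volume by making or removing glycerol, the main solute with which they balance external salt. Changes in transcripts follow this immediate response, and acclimated cultures keep a different steady state at each salinity. The table pairs none of its identifiers with a gene name, and none has a match (0 identifiers) in the available gene table, which is of strain CCAP 19/18. Transcripts are therefore described by identifier, level and behaviour in the other groups, and no role is given to any of them.

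The table lists 43236 assembled transcripts with 1 abundance value per library, scaled for depth and transcript length, and 34166 (79.0%) were tested because 3 or more of the 18 libraries gave them a value of 1 or higher. Library totals lay between 768508 and 826141 units in the 6 libraries compared, where 4813 to 6626 transcripts were listed at 0. Sequencing depth is unknown. In both arms libraries 1 and 2 have the same series of title tags, whereas the third library carries a series of its own in each arm. The tag of every 24h library differs from that of the 0h library in its series, and the meaning of the tags is not stated, so 24h and 0h cannot be told apart from their tags. Nothing says that the 3 libraries of a group are separate cultures, so p-values cover only the spread among them, which may be technical.

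Most transcripts that were well expressed stood at similar levels in both cultures. Limma, a linear model with moderated variances fitted to log2(value + 1) over all 18 libraries, called 2420 of 34166 transcripts different at a Benjamini-Hochberg adjusted p under 0.05 (7.08%). Of these, 1358 (3.97%) were higher and 1062 (3.11%) lower in L2H 24h. The same fit placed 21459 transcripts (62.8%) inside a 2-fold difference, by a pair of one-sided tests adjusted over all transcripts, and 564 transcripts met both criteria. The remaining 10851 (31.8%) met neither, so their likeness was not settled by these libraries. Adding 1 draws low values together, so 2 values below 1 differ by less than 2-fold on this scale whatever their ratio. With 0.1 or 5 added instead, 12657 (37.0%) and 32831 (96.1%) transcripts were inside 2-fold. Of the 11013 transcripts whose mean reached 10 over all libraries, 9058 (82.2%) were inside 2-fold and 1220 (11.1%) were called different, while 1212 met neither criterion. The median difference over all tested transcripts was 0.01 on the log2 scale. The share of calls that were higher in L2H 24h, 56.1%, was 52.8% on quantile-normalized values and 38.7% on values scaled to their upper quartile, so the majority direction depended on the scaling.

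The number called rested on how libraries 1 and 2 were counted. These libraries resemble each other more than the third (r across transcripts 0.969 in H2L 0h and 0.967 in L2H 24h, against 0.948 to 0.962 with the third). When libraries 1 and 2 were averaged into 1 sample, 68 transcripts were called, 3 higher and 65 lower, and all 68 were among the 2420 with the same direction. Within libraries 1 and 2 alone 9061 were called (26.5%), among them 2318 of the 2420 in the same direction. Leaving out a single library of H2L 0h left 800 calls when it was library 1 and 538 when it was library 2. For L2H 24h these counts were 695 and 828.

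**Figure D1:**
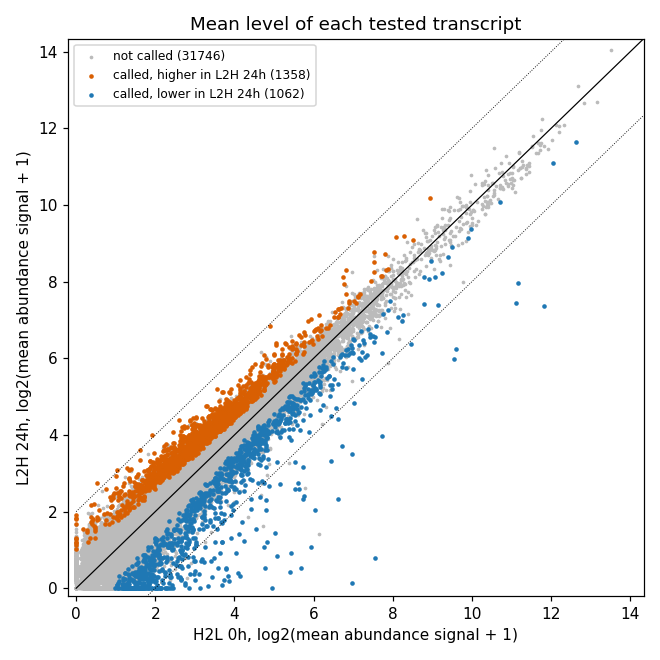
Each point is 1 of the 34166 tested transcripts, plotted by log2(mean abundance signal + 1) in H2L 0h (horizontal) and L2H 24h (vertical), with the line of equality solid and 4-fold differences dotted. The 1358 transcripts called higher in L2H 24h lie above the line, 3 of them at least 4-fold in the fit, and of the 1062 called lower 106 are at least 4-fold below.

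The share that was settled was lower below a mean of 10 than above it. Among the 15594 transcripts with a mean between 1 and 10, 6.71% were called different, 56.5% were inside 2-fold and 37.3% met neither criterion. Between 10 and 100 (10144 transcripts) these shares were 11.3%, 82.3% and 10.8%, and between 100 and 1000 (747 transcripts) 9.64%, 81.3% and 13.3%. Of the 122 transcripts whose mean reached 1000, 5 (4.10%) were called, all of them lower in L2H 24h, and 104 (85.2%) were inside 2-fold. Below a mean of 1, 154 of 7559 transcripts (2.04%) were called, 47.5% were inside 2-fold and 50.5% met neither criterion. At such levels the added 1 keeps differences small, so the 47.5% need not mean likeness.

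**Figure D2:**
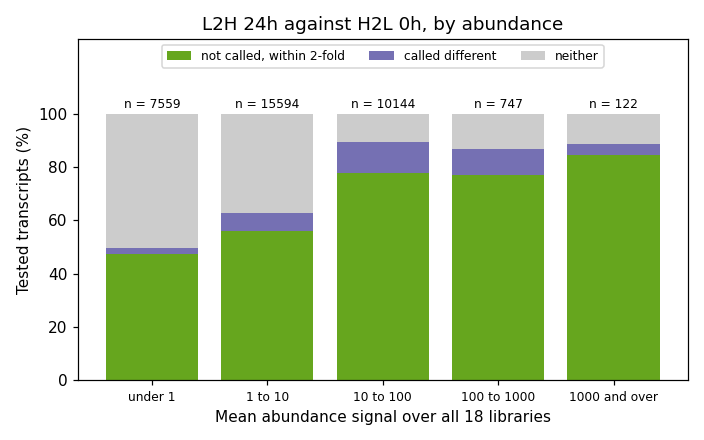
The bars give the percentage of tested transcripts in 5 classes of mean abundance signal over all 18 libraries that were called different between L2H 24h and H2L 0h, that were inside 2-fold and not called, or that met neither criterion. The share that met neither criterion was 37.3% between 1 and 10 and 10.8% between 10 and 100.

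Of the 100 most abundant transcripts 4 were called, all lower in L2H 24h, and 85 were inside 2-fold. These 4 are named because they are so few, after their values were seen. The transcript c66899_g1_i1 gave 4233, 3672 and 2921 in the H2L 0h libraries and 171, 159 and 164 in L2H 24h. The groups were far apart, and the library values within L2H 24h were nearly the same. Its log2 difference was -4.43 (SE 0.24, limma adjusted p = 1.73e-08). Averaging libraries 1 and 2 gave a limma adjusted p of 0.000111. Its level in L2H at 0h was 97.2 ± 23 (mean ± SD, n = 3) and at 4h 109 ± 38.5, so the L2H arm stayed low throughout, while the H2L arm gave 7120 ± 1680 at 4h and 1158 ± 169 at 24h.

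The other 3 differed by about 2-fold or less. The transcript c51419_g1_i1, the fifth most abundant over all libraries, stood at 6314 ± 766 in H2L 0h and 3204 ± 265 in L2H 24h (log2 difference -0.97, SE 0.21, limma adjusted p = 0.0123). The transcript c50377_g2_i1 stood at 4264 ± 598 and 2183 ± 111 (log2 difference -0.96, SE 0.19, limma adjusted p = 0.00803), and c42316_g1_i1 at 1666 ± 231 and 1082 ± 113 (log2 difference -0.62, SE 0.16, limma adjusted p = 0.0273). None of the 3 was called by limma with libraries 1 and 2 averaged (adjusted p = 0.365, 0.356 and 0.491). The call of c51419_g1_i1 was also lost without H2L 0h library 1 or 2 or L2H 24h library 1 (limma adjusted p = 0.0622, 0.0501 and 0.0623). That of c42316_g1_i1 was lost with quantile normalization (limma adjusted p = 0.0550) and without library 1 or 2 of either group (limma adjusted p = 0.0870 to 0.141).

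Large differences ran almost entirely in 1 direction. Of the transcripts called, 912 differed at least 2-fold and 109 at least 4-fold on the log2(value + 1) scale. Of the 109, 106 were lower in L2H 24h and 3 higher. The split was 105 against 4 with quantile normalization, 113 against 3 with upper-quartile scaling, 325 against 61 with a pseudocount of 0.1 and 31 against 0 with a pseudocount of 5. With libraries 1 and 2 averaged it was 56 against 1. Leaving out H2L 0h library 3 gave 161 against 13, and leaving out L2H 24h library 3 gave 116 against 9. In H2L 0h the 106 transcripts had a median level of 12.1, with 61 at a mean of at least 10 and 12 at a mean of at least 100. In L2H 24h their median was 0.642, and 14 were listed at 0 in every library.

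The same 106 transcripts were low in L2H before the shift. Their median level was 0.473 in L2H at 0h and 0.407 at 4h, next to 0.642 at 24h. In the H2L arm it was 12.1 at 0h, 11.9 at 4h and 3.10 at 24h. The set was chosen on L2H 24h and H2L 0h, so those medians describe the choice, but the other 4 groups took no part in the difference itself. In bulk cultures fewer expressing cells and less RNA per cell cannot be told apart.

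The largest deficits by the naming rule were those of c9269_g1_i1 and c64590_g1_i1. That rule requires no overlap between the libraries of the groups, which 9050 of all tested transcripts (26.5%) showed. The transcript c9269_g1_i1 gave 132, 163 and 76.7 in H2L 0h, and in L2H 24h it was listed at 0 in libraries 1 and 2 and at 0.30 in library 3. Every H2L 0h library lay far above every L2H 24h library. The log2 difference was -6.77 (SE 0.34, limma adjusted p = 8.61e-09). It lay at 0.433 ± 0.50 in L2H 0h and 0.420 ± 0.191 in L2H 4h, and in the H2L arm it stood at 82.9 ± 32.2 at 4h and 3.37 ± 1.68 at 24h.

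The transcript c64590_g1_i1 gave 227, 224 and 108 in H2L 0h and 0, 1.11 and 1.08 in L2H 24h. The log2 difference was -6.76 (SE 0.75, limma adjusted p = 6.13e-05), and the groups did not overlap, as the naming rule requires. Both transcripts stayed called under all 33 alternatives tried, with limma adjusted p of at most 0.00026 for c9269_g1_i1 and 0.0171 for c64590_g1_i1. In L2H 0h c64590_g1_i1 was listed at 0 in all 3 libraries, and in H2L 24h it gave 4.60, 4.75 and 0.63.

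A set of 7 transcripts, c9269_g1_i1 among them, was at 10 or more in every H2L 0h library and at 1 or less in every L2H 24h library, and 0 transcripts showed the reverse. All 7 had a mean of at least 10 in H2L 4h too, and at H2L 24h their means were 0.523 to 3.92. In L2H their means were 0.150 to 1.12 at 0h and 0.163 to 0.627 at 4h. The 7 transcripts were low in every L2H group, and in the H2L arm they were low at 24h.

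In the opposite direction the differences were smaller and rested on low values. The transcript c42998_g1_i1 gave 10.3, 11.4 and 22.9 in L2H 24h and 0.10, 0.49 and 7.71 in H2L 0h. The groups did not overlap, as the naming rule requires, but library 3 of H2L 0h lay close to L2H 24h. The log2 difference was 2.62 (SE 0.65, limma adjusted p = 0.0246). The transcript c42998_g2_i1, which shares the first part of its identifier and may share reads, gave 9.16, 8.55 and 15.6 in L2H 24h and 0.55, 0.28 and 5.36 in H2L 0h (log2 difference 2.33, SE 0.58, limma adjusted p = 0.0247).

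Both calls were lost with libraries 1 and 2 averaged (limma adjusted p = 0.346 for each) and without any 1 of 5 libraries. Without H2L 0h library 1 or 2 the limma adjusted p was 0.117 and 0.124 for c42998_g1_i1 and 0.104 and 0.133 for c42998_g2_i1. Without L2H 24h library 1, 2 or 3 it was 0.0612, 0.0644 and 0.0672 for the first and 0.0706, 0.0613 and 0.0649 for the second. The remaining transcript higher by at least 4-fold, c27338_g1_i1, is named because only 3 were found, after its values were seen. It gave 7.81, 4.76 and 4.71 in L2H 24h and 0.47, 0.58 and 0.25 in H2L 0h (log2 difference 2.21, SE 0.21, limma adjusted p = 1.28e-05), and was called with libraries 1 and 2 averaged (limma adjusted p = 0.00701). In L2H 0h it stood at 2.28 ± 0.363, above H2L 0h already.

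**Figure D3:**
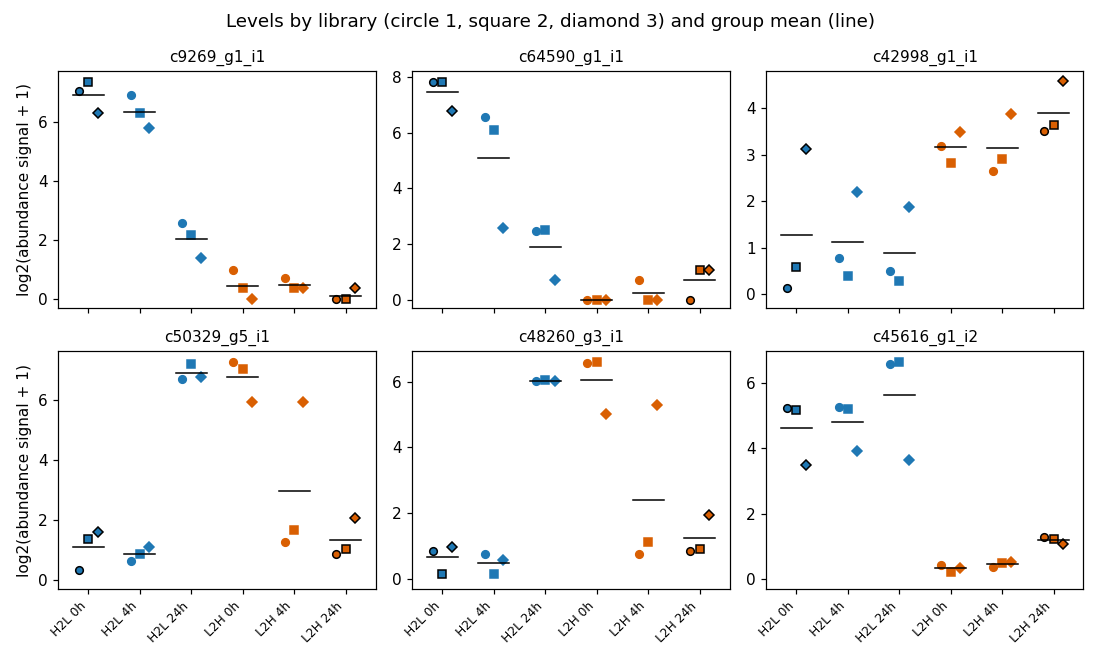
Levels of 6 transcripts as log2(abundance signal + 1) in every library of the 6 groups, with H2L in blue and L2H in orange, the 6 libraries compared outlined in black and the group mean on this scale as a line. The L2H 24h libraries lie near the H2L 0h libraries for c50329_g5_i1 and c48260_g3_i1, and near the L2H 0h libraries for c9269_g1_i1, c64590_g1_i1 and c45616_g1_i2.

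Transcripts from the same assembly component mostly differed the same way. The 2420 called transcripts came from 2157 components, meaning identifiers with the same first part, and 219 components held 2 or more of them. In 129 of the 219 every called transcript was higher in L2H 24h, in 59 every one was lower, and in 31 the directions were mixed. Members of a component may share reads, so they are not independent. The share of same-direction components to be had from the overall split of directions was not computed, and that split depended on the scaling.

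The L2H arm was then set against H2L 0h at each of its times, to show where 24h lies between start and match. Limma called 2689 transcripts at 0h (7.87%), 1139 higher (3.33%) and 1550 lower (4.54%) in L2H. At 4h it called 4178 (12.2%), 1878 higher (5.50%) and 2300 lower (6.73%), and at 24h the 2420 given above. The root mean square log2 difference over all tested transcripts was 0.547, 0.576 and 0.506, which includes the spread between libraries. These 3 comparisons share the H2L 0h libraries and are given side by side. Differences of at least 4-fold numbered 53 higher and 175 lower at 0h, 33 higher and 191 lower at 4h, and 3 higher and 106 lower at 24h. Without library 1 or 2 of H2L 0h the count at 0h was 1177 and 1052 and that at 4h 2011 and 1773. Without library 1 or 2 of the L2H group itself it was 1368 and 1310 at 0h and 1696 and 1751 at 4h.

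Library 3 of L2H 0h was more like library 3 of L2H 4h (r = 0.967 across transcripts) than like libraries 1 and 2 of its own group (0.947 and 0.945). Leaving out library 3 of both groups gave 3527 calls at 0h, 6130 at 4h and 3407 at 24h. The differences of at least 4-fold were then 85 higher and 238 lower at 0h, 80 and 255 at 4h, and 3 and 106 at 24h.

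The change within the L2H arm was tested directly as L2H 24h against L2H 0h, where limma called 474 transcripts (1.39%), 294 higher (0.861%) and 180 lower (0.527%) at 24h. With upper-quartile scaling 136 were higher and 255 lower, so the majority direction depended on the scaling. Averaging libraries 1 and 2 left 0 limma calls, with 2188 transcripts under 0.05 before adjustment, and libraries 1 and 2 alone gave 6892. Leaving out L2H 0h library 1, 2 or 3 gave 31, 27 and 2102 calls. Leaving out L2H 24h library 1, 2 or 3 gave 66, 79 and 191.

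The transcripts c50329_g5_i1 and c48260_g3_i1 moved from far above H2L 0h to values near it. At the start c50329_g5_i1 was higher in L2H (154, 131 and 60.5) than in H2L 0h (0.26, 1.58 and 2.02), and in L2H 24h it gave 0.82, 1.06 and 3.17. The L2H 24h and H2L 0h libraries overlapped, with a log2 difference of 0.22 and a 95% interval of -1.49 to 1.94. The transcript c48260_g3_i1 went the same way, from 93.8, 96.0 and 31.7 in L2H 0h to 0.80, 0.90 and 2.84 in L2H 24h, beside 0.79, 0.11 and 0.96 in H2L 0h (log2 difference 0.58, 95% interval -1.10 to 2.27). Neither interval lies inside a 2-fold difference, so likeness within 2-fold was not shown for either. Both were chosen on the L2H 0h libraries, so their differences between 24h and 0h in L2H, -5.43 and -4.83 on the log2 scale, are given as a description with no test. At 4h libraries 1 and 2 were already low for c50329_g5_i1 (1.42 and 2.18) while library 3 gave 60.1. For c48260_g3_i1 the 4h values were 0.71, 1.16 and 38.1, with the same library high. The start difference of c48260_g3_i1 was no longer called with libraries 1 and 2 averaged (limma adjusted p = 0.0536). These 2 and c9269_g1_i1 and c64590_g1_i1 are the 4 that the naming rule picks from the difference between the arms at 0h.

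The approach was also measured in libraries that took no part in choosing the transcripts. In libraries 1 and 2 of the arms at 0h, limma called 8710 transcripts (25.5%), of which 430 differed at least 4-fold. In library 3, 114 of these that were higher in L2H 0h had a median log2 difference from H2L 0h of 1.16 at 0h, 1.05 at 4h and 0.30 at 24h (quartiles -0.24 and 0.93 at 24h). At 24h 71 of the 114 were still above H2L 0h and 41 below. The 316 that were lower in L2H 0h had medians of -1.24 at 0h, -1.37 at 4h and -0.87 at 24h (quartiles -1.88 and -0.14 at 24h), and 248 of the 316 were still below H2L 0h at 24h. Over all tested transcripts the library 3 median was 0.00, -0.03 and -0.02. The values come from 1 library per group and carry no test. At 4h that library was more like library 3 of L2H 0h (r = 0.967 across transcripts) than like libraries 1 and 2 of L2H 4h (0.951 and 0.950). Library 3 of L2H 0h had r of 0.947 and 0.945 with libraries 1 and 2 of its own group. With the L2H 24h libraries its r was 0.956 to 0.959. The 0h and 4h medians, and the approach from 0h to 24h, therefore need not hold for libraries 1 and 2.

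Over all 8710 transcripts the library 3 difference at 24h had the sign of the start difference in 51.8%, against 63.3% at 0h and 61.2% at 4h. Among all tested transcripts the share at 0h was 55.2%, and the shares at 4h and 24h were not computed. For the 8710 the median library 3 difference in the direction of the start difference was 0.16 at 0h, 0.12 at 4h and 0.02 at 24h. The median over these transcripts was thus small in library 3 at every time. The 0h and 4h values have the same limit as above, because they rest on library 3 of L2H 0h and of L2H 4h.

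The difference between L2H 24h and H2L 0h itself recurred in part in library 3. Of the 9061 transcripts called in libraries 1 and 2, 6210 (68.5%) had the same sign in library 3, against 55.8% of all tested transcripts, and the slope of the library 3 difference on that in libraries 1 and 2 was 0.341. The share with the same sign was 66.7% where the difference in libraries 1 and 2 was under 1 on the log2 scale, 72.7% between 1 and 2, 78.2% between 2 and 3, and 93.8% of 48 transcripts at 3 or more. In that last class the median difference was 3.78 in libraries 1 and 2 and 2.52 in library 3.

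**Figure D4:**
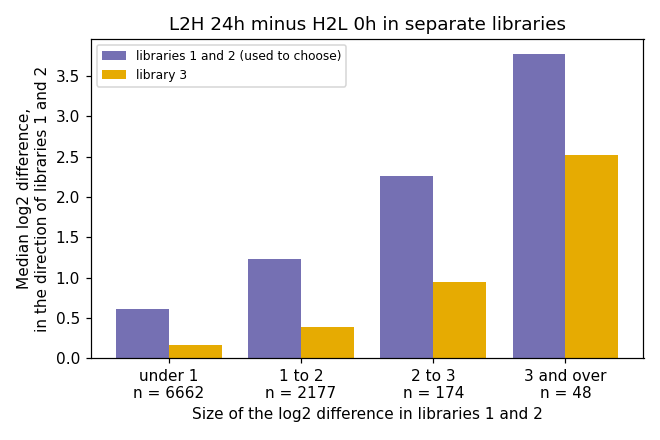
Bars give the median log2 difference of L2H 24h from H2L 0h, in the direction seen in libraries 1 and 2, for the 9061 transcripts called in those libraries, in 4 classes of size. Library 3, which took no part in the choice, gave a median of 0.16 in the class under 1 and 2.52 in the class at 3 or more.

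On average the L2H 24h libraries were less like H2L 0h than like the other L2H groups or H2L 24h, but the ranges overlapped. Their r across transcripts with the H2L 0h libraries was 0.923 to 0.949 (mean 0.936). With the L2H 0h libraries it was 0.935 to 0.959 (mean 0.945), and with the L2H 4h libraries 0.938 to 0.960 (mean 0.946). With the H2L 24h libraries it was 0.937 to 0.946 (mean 0.942), and with the H2L 4h libraries the mean was 0.907. Outside its own group each L2H 24h library was most like library 3 of another L2H group, libraries 1 and 2 like that at 0h (r = 0.956 and 0.958) and library 3 like that at 4h (r = 0.960). Conversely, each H2L 0h library was most like L2H 24h library 3 among all libraries outside its group (r = 0.937 to 0.949). These r are across transcripts, which are not replicates, and are given as a description.

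A second pair of groups asks the same question from the other side without sharing a library. The fit is shared, and a transcript has the same variance estimate in both pairs, so calls in the 2 pairs are not independent. H2L 24h against L2H 0h compares cultures that, by the labels, share the other salinity, and limma called 549 transcripts there (1.61%), 283 higher (0.828%) and 266 lower (0.779%) in H2L 24h. With upper-quartile scaling 396 were higher and 227 lower. With libraries 1 and 2 averaged 5 were called, all higher, and in libraries 1 and 2 only 4761. Leaving out library 1 or 2 gave 161 and 192 calls for H2L 24h and 232 and 190 for L2H 0h. Across 34166 transcripts the 2 differences had r = -0.162, and 47.9% had the same sign. Called in both were 181 transcripts, 7.48% of the 2420 and 33.0% of the 549. Of these 181, 162 went in opposite directions and 19 in the same direction. An opposite direction means that a transcript was higher in the same arm at both salinities, and 119 of the 162 were higher in H2L and 43 in L2H. With libraries 1 and 2 averaged the numbers were 3 and 0, and without library 1 or 2 of any of the 4 groups they were 70 to 93 and 4 to 8. Without library 3 of a group they were 148 to 217 and 18 to 52, with 41 in the same direction without H2L 0h library 3, 30 without H2L 24h library 3 and 52 without L2H 0h library 3. They were 11 and 1 with only the groups compared in each fit, 739 and 403 with array weights, 1419 and 961 in libraries 1 and 2 only, and 175 and 97 without library 3 of L2H 0h and 4h, so the excess of opposite directions varied widely. The r was -0.164 in libraries 1 and 2 and -0.179 in library 3, but -0.09 and 0.06 when one difference came from libraries 1 and 2 and the other from library 3.

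Of the 106 transcripts at least 4-fold lower in L2H 24h than in H2L 0h, 97 had a positive log2 difference between H2L 24h and L2H 0h, against 46.8% of all tested transcripts. For 38 of the 106 that difference was called, against 0.828% of all transcripts called higher there, and for 0 of them was it called lower by limma. With libraries 1 and 2 averaged it was called higher for 2 of the 106. Without library 1 or 2 it was called for 21 and 19 when they were of H2L 24h, and for 25 and 21 when they were of L2H 0h. Their median difference was 1.14, and that of all tested transcripts was -0.02. The abundant c66899_g1_i1 is one of the 38, at a log2 difference of 3.58 (limma adjusted p = 7.62e-07). Because both pairs use the same variance estimates, the 0.828% is not an independent baseline for the 38. In L2H 0h the 106 had a median level of 0.473, which left many of them little room for a negative difference. A positive sign was thus favoured beforehand, and the 46.8% and 0.828% come from transcripts not matched for level.

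**Figure D5:**
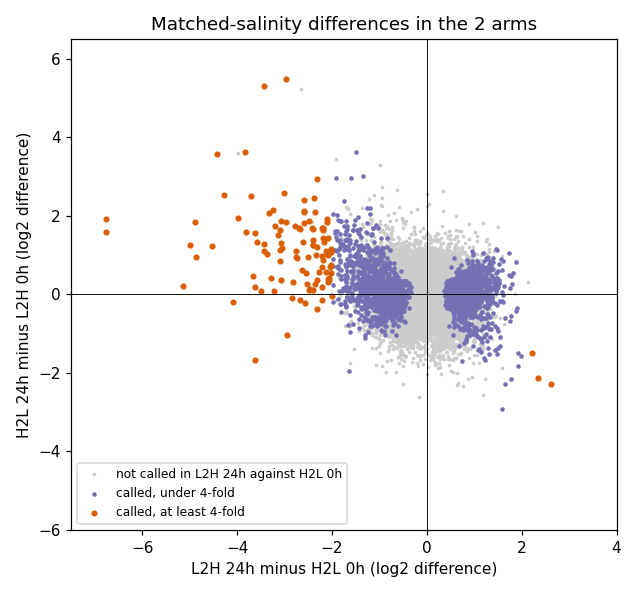
Each point is a tested transcript, plotted by its log2 difference L2H 24h minus H2L 0h (horizontal) and H2L 24h minus L2H 0h (vertical), which share no library, with colours for the call and its size in the first. The transcripts at least 4-fold lower in L2H 24h lie mostly in the upper left. Of these, 97 of 106 have a positive vertical value, against 46.8% of all tested transcripts. The median level of the 106 in L2H 0h was 0.473, which left many of them little room for a negative value.

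The mean difference between the arms over both matched salinities was then tested, which is also the test of whether the 2 matched differences differ. Limma called 1590 transcripts (4.65%), 785 higher (2.30%) and 805 lower (2.36%) in L2H. With upper-quartile scaling these were 495 and 1120, so the balance of directions depended on the scaling. A called mean need not be called in each pair. Of the 1590, 162 were called in both pairs in opposite directions and 428 in neither pair, and for 58 the 2 matched differences had the same sign. Differences of at least 4-fold were 3 higher and 56 lower in L2H, and 3 and 61 with upper-quartile scaling. The transcript c45616_g1_i2 gave 36.9, 35.0 and 10.2 in H2L 0h, 96.1, 99.5 and 11.5 in H2L 24h, 0.36, 0.16 and 0.26 in L2H 0h and 1.43, 1.36 and 1.09 in L2H 24h. All 6 H2L libraries lay above all 6 L2H libraries, with a mean log2 difference of -4.37 (SE 0.43, limma adjusted p = 1.46e-05). The transcript c64590_g1_i1 followed at -4.33 (SE 0.53, limma adjusted p = 0.000122). Its difference between H2L 24h and L2H 0h alone was 1.90 and was not called (limma adjusted p = 0.249).

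Higher in L2H at both salinities were c42998_g1_i1, already described, at 2.45 (SE 0.46, limma adjusted p = 0.00527) and c41294_g1_i4 at 2.25 (SE 0.29, limma adjusted p = 0.000166). The latter gave 34.7, 33.4 and 33.4 in L2H 24h against 10.4, 5.6 and 19.6 in H2L 0h, and 29.0, 30.6 and 59.2 in L2H 0h against 5.67, 3.30 and 3.62 in H2L 24h. In both pairs the L2H libraries lay above the H2L libraries, as the naming rule requires. For c42998_g1_i1 the difference between H2L 24h and L2H 0h alone was -2.28 and was not called (limma adjusted p = 0.0950). With libraries 1 and 2 averaged 139 transcripts were called, 17 higher and 122 lower in L2H. The call of c42998_g1_i1 was lost there (limma adjusted p = 0.191) and that of c41294_g1_i4 was not (0.0123). Leaving out library 1 or 2 gave 931 and 814 calls for H2L 0h, 939 and 949 for H2L 24h and 904 and 900 for L2H 24h. In library 3 each arm has its own series of title tags, so there the arm and the tag cannot be told apart. Libraries 1 and 2, which share their tags across arms, gave 7422 calls (21.7%). They are closer to each other than to the third library and may not be separate cultures. The larger number therefore need not mean a firmer arm difference than the 139 found when they were averaged.

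Finally, the mean of the 2 matched differences was tested, which sets both 24h groups together against both 0h groups. Limma called 715 transcripts (2.09%), 366 higher (1.07%) and 349 lower (1.02%) at 24h. A called mean can rest on 1 pair: the 2 differences had opposite signs for 66 of the 715, c9269_g1_i1 and c64590_g1_i1 among them, and 19 were called in both pairs in the same direction. Of the 715, 133 were called in neither pair. The transcript c48295_g1_i3 gave 123, 132 and 377 in H2L 0h and 11.8, 11.1 and 20.9 in L2H 24h. It gave 101, 104 and 191 in L2H 0h and 32.8, 31.8 and 55.8 in H2L 24h. The 24h libraries lay below the 0h libraries in both pairs, as the naming rule requires. The mean log2 difference was -2.64 (SE 0.62, limma adjusted p = 0.0364). The transcript c13697_g1_i1 fell by 1.99 (SE 0.45, limma adjusted p = 0.0312), from 18.0 ± 11.3 in H2L 0h to 1.33 ± 0.951 in L2H 24h and from 9.78 ± 1.89 in L2H 0h to 4.31 ± 1.51 in H2L 24h. Between H2L 24h and L2H 0h alone neither c48295_g1_i3 nor c13697_g1_i1 was called (limma adjusted p = 0.410 and 0.497).

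Higher at 24h were c45972_g1_i1, at 4.60 ± 3.17 in H2L 0h and 11.4 ± 1.96 in L2H 24h (mean log2 difference 1.34, SE 0.27, limma adjusted p = 0.0202), and c43786_g1_i1. The latter gave 11.4, 11.7 and 27.2 in H2L 0h and 27.6, 28.1 and 32.6 in L2H 24h, close together in library 3 (mean log2 difference 1.34, SE 0.27, limma adjusted p = 0.0198). Between L2H 24h and H2L 0h alone neither was called (limma adjusted p = 0.0555 and 0.168). Between H2L 24h and L2H 0h c43786_g1_i1 was called and c45972_g1_i1 was not (limma adjusted p = 0.0243 and 0.0819). All 4 calls of the mean were lost with libraries 1 and 2 averaged (limma adjusted p = 0.465 to 0.489), where 1 transcript was called by limma and 2595 had an unadjusted p under 0.05. Each was also lost when library 1 or 2 of H2L 0h was left out (limma adjusted p = 0.0582 to 0.0756), and likewise for H2L 24h (0.0511 to 0.0844). That of c48295_g1_i3 was lost without the trend in the prior variance (limma adjusted p = 0.0579), and that of c13697_g1_i1 with a pseudocount of 0.1 (0.0515). Without L2H 0h library 1 or 2 those of c45972_g1_i1, c48295_g1_i3 and c13697_g1_i1 were lost (0.0610 to 0.0757). Without L2H 24h library 1 those 3 were lost too (0.0524 to 0.0788), without L2H 24h library 2 those of c48295_g1_i3 and c13697_g1_i1 (0.0753 and 0.0698), and without H2L 0h library 3 that of c48295_g1_i3 (0.0520). Leaving out library 1 or 2 gave 231 and 166 calls for H2L 0h, 222 and 292 for H2L 24h, 214 and 222 for L2H 0h, and 277 and 358 for L2H 24h. It was 1300 without H2L 0h library 3 and 1321 without L2H 0h library 3.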

How the data were processed

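The tools named per the submitters' processing notes are Bowtie2, RSEM and FastQC, without versions. The authors deposited 1 table of abundance signal, scaled for depth and transcript length; whether that means FPKM or TPM is not stated in those sources. Because they are scaled, the values were not treated as counts. Of 36592 rows in which the highest value was a limited multiple of the lowest, 8.84% had values within 0.2 of whole multiples of it. Each library is scaled for its own depth, so this share cannot show whether reads could be recovered. Reads were not recovered and depth is unknown. Columns were matched to samples by title.

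The fits used log2(value + 1), with no added normalization, for transcripts at 1 or more in at least 3 libraries. Limma 3.58.1 in R 4.3.3 estimated group means from all 18 libraries, the prior variance following a trend, in two-sided tests with Benjamini-Hochberg adjustment and a threshold of 0.05. Likeness was tested by a pair of one-sided tests against 2-fold in the same fit. Named transcripts are, per comparison, the 2 largest rises and 2 largest falls among those called, with a mean of at least 10 on the higher side and no overlap. For the means over 2 pairs of groups, no overlap was required in each pair. Of all tested transcripts, 26.5% did not overlap between L2H 24h and H2L 0h, and 19.1% between H2L 24h and L2H 0h. Members, comparisons and lists were chosen with earlier results of these data known.

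Alternatives changed the pseudocount, filter, scaling, block, weights, trend, threshold and libraries. Leaving out libraries outside the groups compared, and all alternatives for L2H 0h and 4h, for H2L 24h and L2H 24h against L2H 0h, for the calls in both matched pairs, for the 5 transcripts named after their values were seen and for scaling in library 3, were chosen after seeing the data.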

Additional observations from a re-analysis of the deposited data

Results flagged for a closer look

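For 4 transcripts the values are given here because their difference between L2H 24h and H2L 0h differed from that between H2L 24h and L2H 0h, by the test of the difference itself in the limma fit. For c42998_g1_i1 the first difference exceeded the second by 4.90 on the log2 scale (SE 0.92, adjusted p = 0.00527), and for c42998_g2_i1 by 4.47 (SE 0.82, adjusted p = 0.00448). For c9269_g1_i1 the first difference minus the second was -8.36 (SE 0.49, adjusted p = 2.96e-08), and for c64590_g1_i1 it was -8.67 (SE 1.06, adjusted p = 0.000122). These 4 were named for the size of the first difference, so the test is not independent of that choice.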

How the results depend on the processing

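The 2420 calls became 561 when the fit held only these groups, 3834 with the replicate block, 8251 with array weights, 45 (1 higher and 44 lower) with a 2-fold minimum, 508 at 0.01, 9061 in libraries 1 and 2 only, 68 with these averaged, and 538 to 3317 with 1 library left out. In the order block, weights, 2-fold minimum, 0.01, libraries 1 and 2 only, averaged, the arm difference (1590) gave 3270, 6056, 38, 576, 7422 and 139, and the 24h difference (715) gave 1580, 4938, 2, 48, 6407 and 1. Leaving out 1 library gave 814 to 2177 and 166 to 1321, and the 24h difference gave 1828 without library 3 of L2H 0h and 4h. Against H2L 0h, L2H 0h (2689) gave 974 with only the groups compared, then 4870, 7909, 103, 962, 8710 and 207 in that order, and 1052 to 3446 with 1 library left out. L2H 4h (4178) gave 2018 with only the groups compared, 10356 with weights, 89, 1360, 10299 and 174, and 1696 to 5416. H2L 24h against L2H 0h (549) gave 357 at a minimum value of 10, 43 with only the groups compared, then 1860, 2916, 6, 162, 4761 and 5, and 161 to 689. L2H 24h against L2H 0h (474) gave 0 with only the groups compared (5018 at an unadjusted p under 0.05), then 1107, 4574, 4, 47, 6892 and 0, 2727 without library 3 of L2H 0h and 4h, and 27 to 2102 with 1 library left out. With the block, 638 transcripts were called in opposite directions in both matched pairs and 76 in the same direction. The 21459 inside 2-fold became 12657 and 32831 with pseudocounts of 0.1 and 5, 10823 at a minimum value of 10, 12981 at 0.01, and 16933 to 21933 with 1 library left out. The 51.8% in library 3 became 53.4% after quantile normalization. The cause of these shifts was not tested, except that fewer transcripts are tested at the minimum of 10. No named transcript changed direction under the alternatives tried for it. The replicate block had a level for title number 1, for 2 and for the separate tag series of library 3 in each arm. Same-numbered libraries 1, 2 and 3 of the 2 groups deviated from their group means with r of 0.04, -0.04 and -0.02, so the numbers were not taken to pair them.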
